A study of Mus musculus with 6 samples.

Results

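The genes described are 8 chemokine receptors, *Cxcr3*, *Cxcr4*, *Cxcr6*, *Ccr2*, *Ccr7*, *Ccr8*, *Ccr9* and *Cx3cr1*, taken by symbol from the 32285 genes of the expression tables, where each symbol names 1 gene. They were followed in CD8 T cells of mice engrafted with B16-OVA, a mouse melanoma line expressing ovalbumin, to ask how their transcripts differ between the tumor and its draining lymph node (LN), with and without the IFNγ receptor in CD8 T cells, and between small and large T cell clones. Control mice had the genotype CD8-Cre Rosa26Tomato, and CD8-IFNγRKO mice had CD8-Cre IFNgR1flox/flox Rosa26Tomato, so both carried a Cre active in CD8 T cells and a Tomato reporter of its activity, and the receptor gene was deleted by that Cre in the second group alone. Tissue was taken on day 12 from 3 young adult mice of each genotype, and cells sorted as CD45+ CD3+ CD8+ Tomato+ were pooled into a 5′ single-cell library for each tissue and genotype, with T cell receptor (TCR) sequencing of the tumor cells. Since each group was thus 1 library, no test between groups was possible, and the 95% intervals given are exact intervals for the counting of molecules, which cover neither differences between mice nor between libraries.

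Chemokine receptors are G protein-coupled receptors that steer leukocytes along gradients of secreted chemokines, mostly through Gαi proteins. *Ccr7* binds Ccl19 and Ccl21 and keeps naive and central memory T cells in lymphoid tissue, and *Cxcr4* is the receptor for Cxcl12. *Ccr9*, the receptor for Ccl25, is known from thymocytes, naive CD8 T cells and gut-homing T cells. *Cxcr3* binds the IFNγ-inducible chemokines Cxcl9 and Cxcl10 and brings activated T cells into inflamed tissue, *Cxcr6* binds Cxcl16 and is used by resident and tumor-infiltrating T cells, and *Ccr2*, *Ccr8* and *Cx3cr1* bind Ccl2, Ccl1 and the membrane-bound chemokine Cx3cl1, respectively.

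Of the 8 genes, 5 lie on chromosome 9 in the RefSeq annotation of GRCm38.p6, some of them as close neighbours. *Cx3cr1* (chr9:120048683-120068296, minus strand) and *Ccr8* (chr9:120092133-120094906, plus strand) were 23836 bases apart. *Ccr9* (chr9:123767211-123783457, plus strand) ended 23019 bases before *Cxcr6* (chr9:123806477-123811754, plus strand), and *Ccr2* (chr9:124101918-124109140, plus strand) followed 290163 bases further on. *Cxcr6* lies within the span of *Fyco1*, which had only 13.2 to 25.4 CPM (UMIs, counted RNA molecules, per 1000000 UMIs of the library) in the libraries, and *Ccr9* and *Cx3cr1* overlap the predicted genes *Gm17021* and *Gm33858*. *Cxcr3* is on chromosome X (chrX:101731535-101734147), *Cxcr4* on chromosome 1 (chr1:128588199-128592299) and *Ccr7* on chromosome 11 (chr11:99144199-99155077).

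The 250 bases before the start of 4 chromosome 9 genes are shown for the comparison of neighbours, since *Ccr9* and *Cxcr6*, and *Cx3cr1* and *Ccr8*, each share a stretch of the chromosome (RefSeq promoters of GRCm38.p6, each 5′ to 3′ on the strand of its gene, with capitals marking a match to the RUNX motif TGTGGT on the other strand). The windows are chr9:123766961-123767210 for *Ccr9*, chr9:123806227-123806476 for *Cxcr6*, chr9:120068297-120068546 for *Cx3cr1* and chr9:120091883-120092132 for *Ccr8*.
Ccr9: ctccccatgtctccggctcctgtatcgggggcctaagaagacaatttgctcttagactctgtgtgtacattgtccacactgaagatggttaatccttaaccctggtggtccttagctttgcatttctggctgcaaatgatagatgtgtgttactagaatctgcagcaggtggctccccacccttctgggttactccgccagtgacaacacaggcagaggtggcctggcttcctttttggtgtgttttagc
Cxcr6: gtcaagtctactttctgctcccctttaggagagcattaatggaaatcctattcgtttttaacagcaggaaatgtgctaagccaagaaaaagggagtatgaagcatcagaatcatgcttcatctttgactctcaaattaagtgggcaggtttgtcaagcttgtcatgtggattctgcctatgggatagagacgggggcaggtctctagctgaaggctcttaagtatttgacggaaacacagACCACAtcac
Cx3cr1: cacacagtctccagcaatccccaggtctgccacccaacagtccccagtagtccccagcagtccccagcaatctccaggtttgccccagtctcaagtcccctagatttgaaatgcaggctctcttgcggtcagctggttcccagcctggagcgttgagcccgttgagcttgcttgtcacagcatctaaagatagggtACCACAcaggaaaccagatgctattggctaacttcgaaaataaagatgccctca
Ccr8: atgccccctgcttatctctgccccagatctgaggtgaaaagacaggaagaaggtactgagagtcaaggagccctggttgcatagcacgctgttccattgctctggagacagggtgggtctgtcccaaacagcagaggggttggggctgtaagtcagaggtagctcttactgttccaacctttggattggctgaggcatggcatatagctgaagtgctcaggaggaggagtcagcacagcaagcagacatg

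RefSeq promoter windows were found for 7 of the 8 genes, all but *Ccr7*, and short motifs were searched on both strands in the 250 bases before the start that each window gives. For *Ccr2* these bases (chr9:124101933-124102182) lay within the gene span given above. The motif of RUNX factors, which shape CD8 T cell identity, was present in 3 of the 7, at 10 to 5 bases before the start of *Cxcr6*, 54 to 49 before *Cx3cr1* and 110 to 105 before *Cxcr3*. The same motif occurred in 14.2% of 27025 promoters. The core of the interferon-stimulated response element (GAAA, any 2 bases, GAAA) occurred in 3.04% of promoters and in none of the 7 windows, which also lacked the AP-1 motif TGANTCA (6.87%), the T-box motif AGGTGTG (5.14%) and the KLF motif GGGTGTG (6.85%). These letters describe the windows only and locate no bound site.

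After the study's cell filters, 8629 CD8-IFNγRKO tumor cells, 7090 control tumor cells, 6731 CD8-IFNγRKO LN cells and 6640 control LN cells remained, with 93889481, 59239982, 28841136 and 29927981 UMIs and medians of 9399, 6294.5, 3863 and 4051 UMIs per cell. Levels are therefore given in CPM of the pooled cells of a library, and shares of cells after each cell had been thinned to 1600 UMIs. All 7 CD8 T cell markers were detected in every library (5357 to 8748 CPM in sum), while 9 myeloid markers summed to 2.94 to 15.9 CPM. These sums partly follow from the filters, since every kept cell had to have a UMI of *Cd2*, *Cd8a* and *Cd8b1*. Barcodes with 3 or more of the myeloid markers had also been removed, in addition to the study's filters. B cell markers, nearly all from 1 gene, summed to 7.58 to 249.7 CPM and were highest in the LN libraries. The 2 markers of γδ T cells differed between the tumors. They summed to 16.6 CPM in CD8-IFNγRKO tumor, nearly all from 1 gene, and to 0.338 CPM in control tumor. In the LN they summed to 1.70 CPM in CD8-IFNγRKO and 1.77 CPM in control. *Ifngr1*, the deleted gene, was at 237.5 CPM in CD8-IFNγRKO and 718.3 CPM in control tumor cells, and at 136.6 and 181.6 CPM in the LN, lower with the deletion in both tissues, and the counts cannot tell intact from deleted transcripts. Any pair of the libraries shared 169 to 249 cell barcodes, and leaving out the shared ones turned no log2 ratio of the 8 genes.

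**Figure D1:**
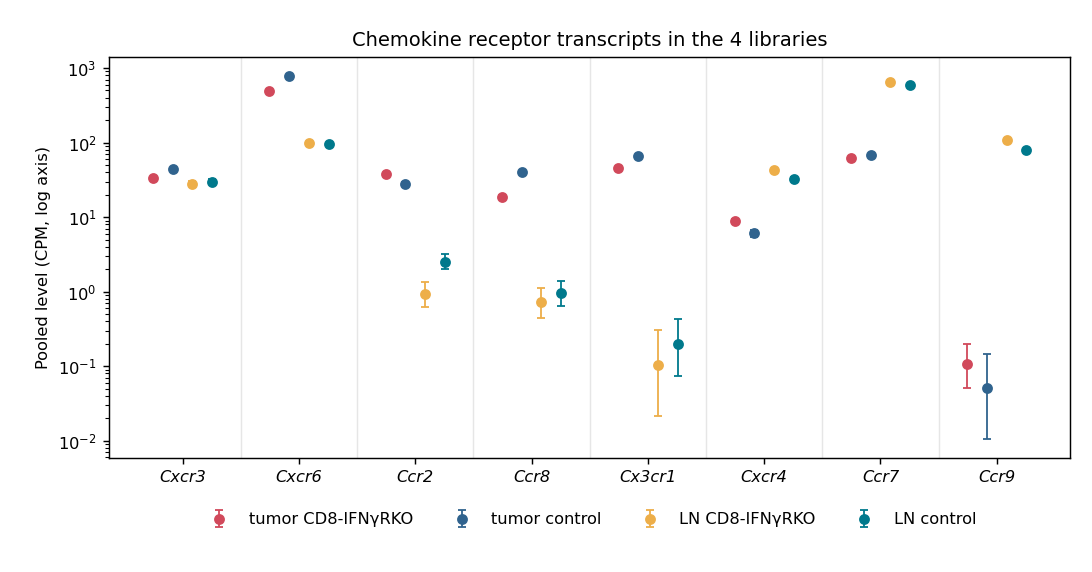
Level of each chemokine receptor gene in the 4 libraries, in CPM on a log axis, with exact 95% Poisson intervals that cover counting error only. Each point is 1 library of cells pooled from 3 mice. Ccr9 lies at 107.7 and 78.5 CPM in the LN and near 0 in the tumor, and Cx3cr1 shows the opposite order.

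The first comparison was between tissues. *Ccr9*, *Ccr7* and *Cxcr4* were higher in LN than in tumor cells of both genotypes, and *Cx3cr1*, *Ccr8*, *Ccr2* and *Cxcr6* were higher in the tumor, whereas *Cxcr3* was near the limit used. Counting a gene as different at a log2 ratio of at least 0.5 after adding 1 CPM to each value, and comparing genes with at least 100 UMIs over both libraries, 8 of 8 receptor genes differed between control tumor and LN, where 55% of 10909 genes did. The 8 include *Cxcr3* at 0.54, which was within the limit under 2 of 11 alternatives. Between CD8-IFNγRKO tumor and LN, 7 of 8 differed, against 58.1% of 11282 genes.

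Among the receptors of the LN, *Ccr9* showed the widest separation. *Ccr9* was at 107.7 CPM (103.9 to 111.5) in CD8-IFNγRKO and 78.5 CPM (75.3 to 81.7) in control LN cells, and the tumor libraries held 10 and 3 of its UMIs in all, or 0.107 and 0.0506 CPM. The log2 ratio of tumor over LN, without added CPM, was −10.60 (95% interval −12.88 to −9.05) in control and −9.98 (−11.04 to −9.10) in CD8-IFNγRKO cells. After thinning, 16.5% of CD8-IFNγRKO and 12.4% of control LN cells had a *Ccr9* UMI, against 1 of 8351 and 0 of 6389 tumor cells (31.4% and 26.3% of LN cells before thinning).

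*Ccr7* was at 640 CPM in CD8-IFNγRKO LN, 584 CPM in control LN, 62.0 CPM in CD8-IFNγRKO tumor and 69.2 CPM in control tumor cells, a log2 ratio of tumor over LN of −3.35 and −3.06 for CD8-IFNγRKO and control. Its transcripts were spread over most LN cells, since 60.2% and 56.4% of thinned LN cells had a *Ccr7* UMI (85.1% and 82.3% unthinned), and gathered in a few tumor cells. The 5% of tumor cells with most *Ccr7* held 78.6% of its UMIs in CD8-IFNγRKO and 87.4% in control tumor, against 17.4% and 18.5% in the LN. Counted without thinning, like these shares, the highest cell had 113 *Ccr7* UMIs in CD8-IFNγRKO tumor and 77 in control tumor. The LN libraries, which were shallower per cell, had 31 and 27. After thinning, the gap was smaller. Cells with *Ccr7* then carried 2.14 and 2.48 of its UMIs on average in the tumors and 1.80 and 1.73 in the LN, for CD8-IFNγRKO and control.

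As *Ccr7* also marks mature dendritic cells, cells with a UMI of their genes *Fscn1* or *Ccl22* were counted, a pair chosen after the values were seen. There were 84 of these cells among the 8629 kept cells of CD8-IFNγRKO tumor and 35 among the 7090 of control tumor. They held 1.22% and 2.24% of the *Ccr7* UMIs. Most *Ccr7* transcripts of the kept tumor cells thus came from barcodes without these genes. Every kept barcode already had to have a UMI of *Cd2*, *Cd8a* and *Cd8b1*, so this count cannot tell how much dendritic cells contributed.

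*Cxcr4* was at 42.4 CPM in CD8-IFNγRKO LN and 32.5 CPM in control LN, and at 8.96 and 6.09 CPM in the tumors, with log2 ratios of tumor over LN of −2.13 for CD8-IFNγRKO and −2.24 for control. Shares of thinned cells followed the same order, at 7.06% and 5.54% in the LN and 1.72% and 1.27% in the tumor.

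Among the receptors of the tumor, *Cx3cr1* was at 45.9 CPM in CD8-IFNγRKO and 66.2 CPM in control tumor cells, and the LN libraries held 3 and 6 UMIs in all (0.104 and 0.200 CPM). The log2 ratio of tumor over LN, without added CPM, was 8.79 (7.24 to 11.06) for CD8-IFNγRKO and 8.37 (7.24 to 9.81) for control. Almost no LN cell therefore carried the transcript at this depth.

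*Ccr8* was at 18.8 CPM in CD8-IFNγRKO and 40.1 CPM in control tumor cells, against 0.728 and 0.969 CPM in the LN (21 and 29 UMIs). *Ccr2* was at 37.4 and 27.9 CPM in the tumors and at 0.936 and 2.54 CPM in the LN (27 and 76 UMIs). Both genes were rare in LN cells, with log2 ratios of tumor over LN, after adding 1 CPM, of 3.52 and 4.38 for *Ccr8* and 4.31 and 3.03 for *Ccr2* in CD8-IFNγRKO and control.

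*Cxcr6* was the tumor gene that LN cells carried as well. It was at 498 CPM in CD8-IFNγRKO and 790 CPM in control tumor, and at 97.6 and 96.6 CPM in the respective LN. After thinning, 51.9% and 67.7% of tumor cells and 13.5% of the LN cells of each genotype had a *Cxcr6* UMI (84.8%, 89.0%, 30.2% and 30.4% unthinned). As a check on free RNA, 0 of 38 barcodes of B cells in the LN libraries had a *Cxcr6* UMI, which allows a share of up to 7.89%, at median depths of 2470 and 2448 UMIs, whereas 31 of the 38 had *Ccr7* and 18 had *Cxcr4*, which B cells themselves express.

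*Cxcr3* was at 33.2 CPM in CD8-IFNγRKO and 43.9 CPM in control tumor, and at 28.1 and 30.0 CPM in the LN, with log2 ratios of tumor over LN of 0.23 and 0.54. The share of thinned cells with *Cxcr3* differed more than its CPM, at 7.01% and 9.09% in the tumor against 3.24% and 3.61% in the LN (22.6%, 24.5%, 8.60% and 9.23% unthinned). When every cell was given the same weight, whatever its UMI total, the log2 ratios became 1.18 and 1.28, so the size of the difference depended on how deep and shallow cells were weighted.

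The comparison of genotypes in the tumor asked what the 8 genes did in CD8 T cells lacking the IFNγ receptor. *Ccr8*, *Cxcr6* and *Cx3cr1* were lower in CD8-IFNγRKO than in control tumor cells by the 0.5 limit, and none of the 8 was higher by it. This was 3 of 7 genes compared, where 13.8% of 11318 genes passed the limit and 5.78% did so downwards. *Ccr9*, with 13 UMIs over both tumors, was not compared.

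*Ccr8* had the lowest log2 ratio, −1.05, from 18.8 CPM in CD8-IFNγRKO and 40.1 CPM in control (without added CPM −1.09, 95% interval −1.18 to −1.002). *Cxcr6* had a log2 ratio of −0.66 (−0.68 to −0.65), and *Cx3cr1* one of −0.52 (without added CPM −0.53, −0.59 to −0.47). For *Ccr8* and *Cx3cr1* the shares of thinned cells were lower too, 2.92% against 5.40% and 7.03% against 9.69% (11.1% against 17.5%, and 28.6% against 30.4%, unthinned). The *Cx3cr1* ratio lay at the limit and was −0.41 with each cell weighted equally.

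For *Cxcr6* the share of cells and the UMIs per cell moved together. Thinned tumor cells with at least 1 *Cxcr6* UMI carried 1.65 of them on average in CD8-IFNγRKO and 2.02 in control, and 21.9% and 37.0% of all thinned cells had 2 or more.

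The other 4 genes stayed within the limit. The log2 ratio was −0.39 for *Cxcr3* and −0.16 for *Ccr7*, and the latter became 0.12 with each cell weighted equally. *Ccr2* and *Cxcr4* were the genes with ratios above 0, at 0.41 (37.4 and 27.9 CPM) and 0.49 (8.96 and 6.09 CPM), and the *Cxcr4* ratio without added CPM, 0.56 (0.38 to 0.74), was past the limit, as was its ratio with 1 CPM added once the barcodes shared between libraries were left out (0.51).

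**Figure D2:**
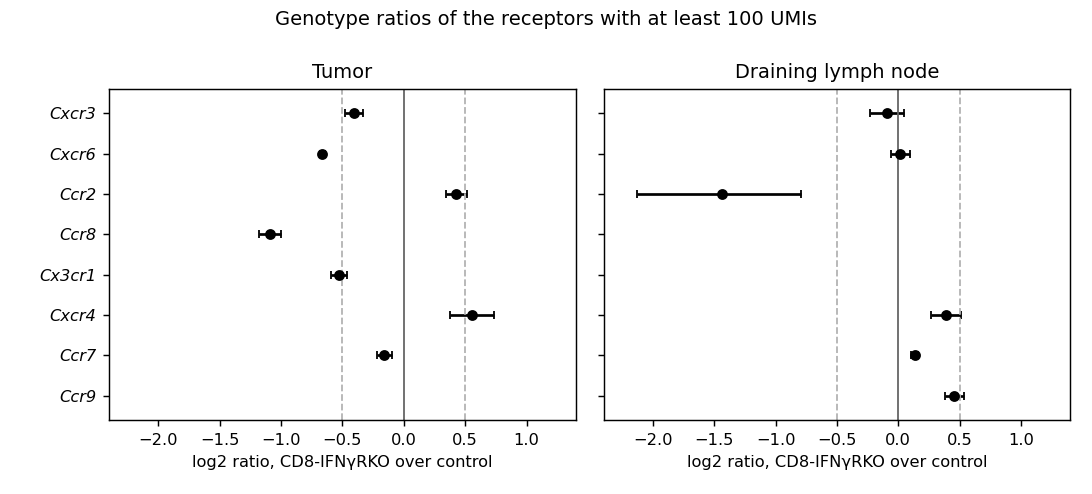
Log2 ratio of CD8-IFNγRKO over control for each receptor gene in tumor and LN, without added CPM, with exact 95% intervals from the UMI counts and dashed lines at the limits of 0.5 in each direction. In the tumor Ccr8, Cxcr6 and Cx3cr1 lie below the lower line and Cxcr4 at 0.56, and in the LN Ccr2 lies at −1.44 with a wide interval.

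In the LN the genotypes differed less. Of 6 genes compared, *Ccr2* alone passed the limit, where 1.2% of 10080 genes did, with a log2 ratio of −0.87 after adding 1 CPM from 27 UMIs in CD8-IFNγRKO and 76 in control (without added CPM −1.44, −2.13 to −0.79). With 5 CPM added it was −0.34. With the barcodes shared between libraries left out, or the 8% of cells with most UMIs, *Ccr2* fell to 96 or 62 UMIs and was no longer compared, with log2 ratios of −0.86 and −0.62. *Ccr9* had a log2 ratio of 0.45 (0.38 to 0.53) and *Cxcr4* one of 0.38 (without added CPM 0.39, 0.26 to 0.51), both higher in CD8-IFNγRKO LN cells and within the limit. *Ccr7* was at 0.13, *Cxcr6* at 0.02 and *Cxcr3* at −0.09, and *Ccr8* and *Cx3cr1* had too few UMIs in the LN to be compared.

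The same rule was applied to the other genes of the chemokine system. Between the tumors, 13.8% of all 11318 genes passed the limit and 5.78% did so downwards. Of 17 further chemokine receptors, 3 had enough UMIs in the tumor, and *Ccr1*, a receptor for Ccl3 and Ccl5, was at 2.84 CPM in CD8-IFNγRKO and 15.3 CPM in control cells (log2 ratio −2.08), and *Ccrl2*, an atypical receptor, at 55.6 and 90.7 CPM (−0.70). The remaining gene was within the limit. Of the ligands, 32 were in the tables and 11 were compared in the tumor, where *Ccl5* fell from 8186 CPM in control to 2763 CPM in CD8-IFNγRKO (−1.57), and *Ccl1*, the ligand of Ccr8, fell from 49.5 to 23.4 CPM (−1.05). *Ccl6* was also lower (−0.60), and *Xcl1*, a chemokine that attracts cross-presenting dendritic cells, was higher at 150.3 against 47.3 CPM (1.65). *Ccr8* and its ligand *Ccl1* were thus lower by the same log2 ratio in the CD8-IFNγRKO tumor.

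Genes acting below the receptors did not pass the limit between genotypes. Of 34 such genes (G proteins, arrestins, receptor kinases, RGS proteins and the adhesion machinery), 31 were compared in the tumor, with log2 ratios from −0.49 to 0.42 and a median of −0.01, where the median of all genes was 0.02. Thus 0 of 31 passed in the tumor, where 13.8% of all genes did in either direction. In the LN, 0 of 31 signaling genes and 0 of 3 further receptors passed, and 2 of 7 ligands did, *Ccl4* (17.2 and 29.6 CPM, −0.75) and *Cxcl10* (24 and 81 UMIs, −1.02), where 1.2% of all genes passed in either direction.

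Between tissues, by contrast, all 3 further receptors compared in control cells were higher in the tumor, among them *Ccrl2* by a log2 ratio of 5.01 and *Ccr1* by 3.98, where 28.6% of 10909 genes were higher by the limit and 26.4% lower. In CD8-IFNγRKO cells 4 further receptors were compared, 3 higher in the tumor and 1 lower (−0.80), where 30.5% of 11282 genes were higher and 27.6% lower. Of 10 ligands compared in control cells, 9 were higher in the tumor, among them *Ccl3* (7.41), *Ccl4* (5.46) and *Ccl5* (5.44). Of 31 signaling genes, 10 were higher and 9 lower in control tumor cells, a share near that of all genes, with *Rgs16*, a brake on Gαi signaling, at 7.11 and *Rgs10*, another RGS protein, at −2.89. In CD8-IFNγRKO cells *Rgs16* was at 7.51 and *Rgs10* at −3.07.

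The TCR libraries allowed the tumor cells to be grouped by clone, a clone being all cells of a library with the same V and J genes and CDR3 nucleotide sequences of their α and β chains. A clone could be assigned to 5935 CD8-IFNγRKO tumor cells (68.8%) in 429 clones and to 4281 control tumor cells (60.4%) in 260 clones, and 0 clones were found in both genotypes. The 3 largest clones held 1463, 1199 and 315 cells in CD8-IFNγRKO and 1104, 1008 and 515 cells in control. In CD8-IFNγRKO 364 clones were single cells and 25 had at least 20 cells, and in control the numbers were 183 and 22. Cells with more than 1 α or β chain, which include doublets, were more frequent in CD8-IFNγRKO (1151 against 196), and leaving them out turned no log2 ratio between single-cell and large clones.

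Receptor levels changed in opposite directions between single-cell clones and large clones. *Ccr7*, *Cxcr3* and *Cxcr4* were lower in clones of 20 or more cells than in single-cell clones of the same tumor, and *Cxcr6*, *Cx3cr1* and *Ccr8* were higher, in both genotypes. By the 0.5 limit, 7 of 7 genes compared differed in CD8-IFNγRKO, against 45.4% of 10288 genes, and 6 of 7 in control, against 36.8% of 9360 genes. Single cells were also shallower, with medians of 3997.5 and 4039 UMIs against 10511.5 and 6355 in clones of 20 or more for CD8-IFNγRKO and control, and with cells under 2000 UMIs left out the counts were 7 and 6 again, while the *Ccr2* log2 ratio in CD8-IFNγRKO went from 1.56 to 1.19.

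*Ccr7* was at 662 CPM in single-cell clones of the CD8-IFNγRKO tumor, 194 CPM in clones of 2 to 4 cells, 73.3 CPM in clones of 5 to 19 cells and 40.8 CPM in clones of 20 or more. In the control tumor it was at 586 CPM in single-cell clones, 5.18 CPM in clones of 2 to 4 cells (2 UMIs), 43.4 CPM in clones of 5 to 19 and 44.6 CPM in clones of 20 or more. The drop from single-cell to large clones amounted to a log2 ratio of −3.99 in CD8-IFNγRKO and −3.69 in control. Of the thinned cells with a *Ccr7* UMI and a clone, 45.5% (162 of 356) in CD8-IFNγRKO and 38.7% (74 of 191) in control were single-cell clones, although these made up 5.97% and 4.27% of cells with a clone.

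*Cxcr3* followed with 129, 106, 99.9 and 25.5 CPM from the smallest to the largest clone class in CD8-IFNγRKO, and 122, 127, 77.4 and 42.7 CPM in control. *Cxcr4* fell from 33.2 over 19.6 and 17.02 to 7.22 CPM in CD8-IFNγRKO, and from 27.4 over 15.5 and 6.04 to 4.98 CPM in control. By CPM, both genes were lowest in the clones of 20 or more cells, with log2 ratios against single-cell clones of −2.30 and −1.49 for *Cxcr3* and −2.06 and −2.25 for *Cxcr4*, in CD8-IFNγRKO and control. *Cxcr4* rested on 8 and 23 UMIs in the middle classes of CD8-IFNγRKO and on 6 and 11 in control. Its share of thinned cells was 5.41%, 2.0%, 5.70% and 1.11% in CD8-IFNγRKO. In control it was 4.44%, 0%, 1.04% and 1.11%, not lowest in clones of 20 or more.

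*Cxcr6* was at 97.9, 415, 467 and 516 CPM over the same classes in CD8-IFNγRKO and at 206, 728, 729 and 843 CPM in control. The step lay between single-cell clones and clones of 2 to 4 cells, and little was added above. *Cx3cr1* had levels of 8.01, 29.5, 28.1 and 47.2 CPM in CD8-IFNγRKO cells and 7.67, 31.1, 62.0 and 65.6 CPM in control, and *Ccr8* at 6.87, 4.91, 9.62 and 19.1 CPM and at 5.48, 33.7, 32.4 and 40.6 CPM, so in CD8-IFNγRKO *Ccr8* was highest in clones of 20 or more, while in control it was already high in clones of 2 to 4 cells (13 UMIs).

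By CPM, *Ccr2* was highest in clones of intermediate size. It was at 11.5, 63.8, 65.9 and 35.7 CPM over the clone classes in CD8-IFNγRKO and at 27.4, 59.6, 68.1 and 26.8 CPM in control. Large clones were thus above single-cell clones in CD8-IFNγRKO (log2 ratio 1.56) and level with them in control (−0.03, −0.60 to 0.61 without added CPM).

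**Figure D3:**
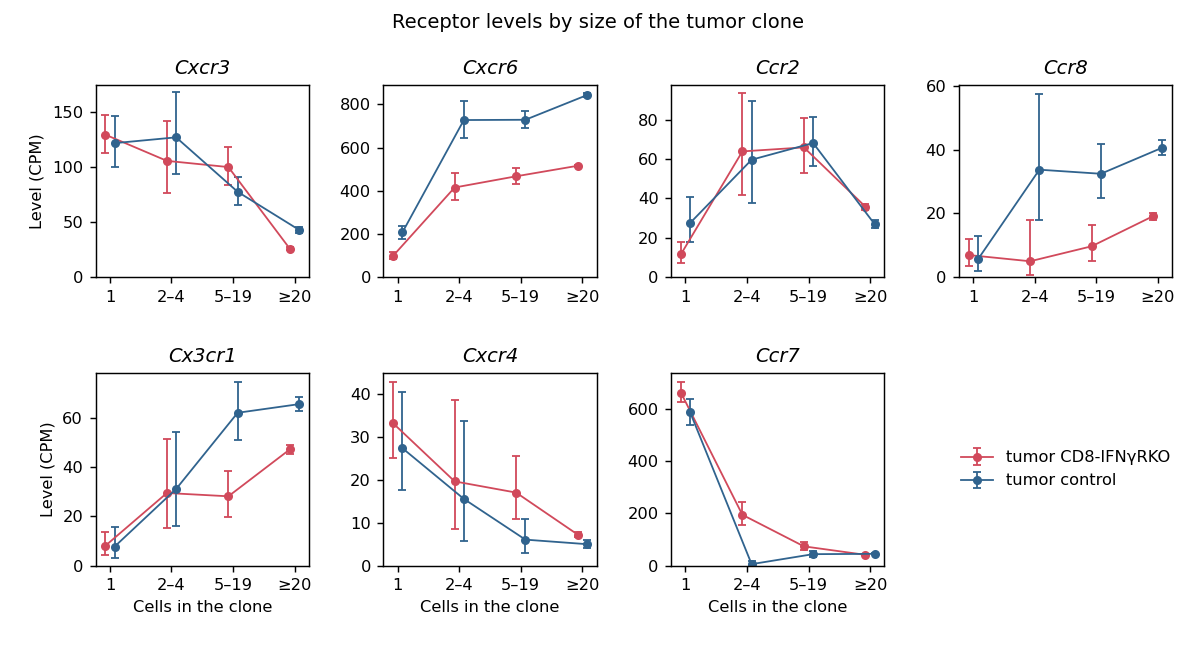
CPM of 7 receptor genes (without Ccr9) in tumor cells by size of their clone, for CD8-IFNγRKO and control, each gene on its own linear axis, with exact 95% Poisson intervals that cover counting error only. Ccr7 is highest in single-cell clones (662 and 586 CPM), Cxcr6 is lowest there (97.9 and 206 CPM), and Ccr2 is highest in the 2 middle classes.

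The lower *Cxcr6* level of the CD8-IFNγRKO tumor was present in every clone class. The log2 ratio of CD8-IFNγRKO over control was −1.07 (−1.38 to −0.77) in single-cell clones, −0.81 in clones of 2 to 4 cells, −0.64 in clones of 5 to 19, −0.71 in clones of 20 or more and −0.64 in cells without a clone. *Ccr8* in turn was at −1.05 in clones of 20 or more and −1.04 in cells without a clone, and *Cx3cr1* at −0.47 and −0.57. *Cxcr3* passed the limit between genotypes in the clones of 20 or more cells, at −0.72 (without added CPM −0.74, −0.85 to −0.64), and not in single-cell clones (0.09, −0.25 to 0.43) or cells without a clone (0.01, without added CPM 0.02, −0.11 to 0.14), and whether these ratios differ from each other was not tested. With the largest clone of each library left out, the *Cxcr3* log2 ratio in clones of 20 or more was −0.43 (32.1 against 43.5 CPM), within the limit, and those of *Cxcr6*, *Ccr8* and *Cx3cr1* were −0.59, −1.32 and −0.53.

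Single-cell clones of the tumor were set beside the LN cells of the same genotype. *Ccr7* was at nearly the same level in both places, 661.6 CPM against 640.5 CPM in CD8-IFNγRKO and 586.3 against 583.7 CPM in control (log2 ratios 0.05, −0.04 to 0.13, and 0.01, −0.12 to 0.13). *Cxcr3*, on the other hand, was 4.61-fold higher in the single-cell clones than in the LN in CD8-IFNγRKO and 4.06-fold higher in control. *Ccr9*, at 107.7 and 78.5 CPM in the LN, was represented by 3 UMIs in CD8-IFNγRKO single-cell clones (log2 ratio −5.97, −8.25 to −4.42) and by 0 UMIs in control, at least 23.9-fold lower against the 3 UMIs that a count of 0 allows. Tumor cells of single-cell clones therefore had, when pooled, the *Ccr7* level of LN cells without their *Ccr9*. Fewer of these tumor cells had a *Ccr7* UMI after thinning, 46.2% in CD8-IFNγRKO and 41.1% in control, against 60.2% and 56.4% of LN cells. *Cxcr6* was level with the LN in CD8-IFNγRKO single-cell clones, at 97.9 against 97.6 CPM, and above it in control, at 206 against 96.6 CPM.

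The 25 CD8-IFNγRKO and 22 control clones with at least 20 cells were also compared clone by clone, a description in which clones of 1 library are not replicates of a genotype. *Cxcr6* ranged from 301 to 817 CPM (median 478) over CD8-IFNγRKO clones and from 392 to 1152 CPM (median 838) over control clones. All 25 CD8-IFNγRKO clones were below the control median, and 11 control clones were above the highest CD8-IFNγRKO clone. The lower *Cxcr6* level was thus found in the smaller as in the larger CD8-IFNγRKO clones of this class. How much the few largest clones contributed to the difference between the tumors was not tested. Clones also differed in depth. The lowest and highest *Cxcr6* clones had medians of 8116 and 3340 UMIs per cell in CD8-IFNγRKO. In control these were 8375 and 4028. The largest clones had medians of 11535 UMIs in CD8-IFNγRKO and 6341 in control. Whether depth bears on the *Cxcr6* difference between clones was not tested.

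*Cx3cr1* ranged from 3.13 to 69.1 CPM (median 30.0) in CD8-IFNγRKO and from 9.90 to 127 CPM (median 62.9) in control clones, with 23 of 25 CD8-IFNγRKO clones below the control median. *Ccr8* ranged from 0 to 103.7 CPM (median 8.50) and from 0 to 64.0 CPM (median 24.3), with 19 of 25 CD8-IFNγRKO clones below the control median. The highest *Ccr8* clone of all was a CD8-IFNγRKO clone of 54 cells, so the genotypes overlapped widely for this gene.

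*Cxcr3* varied 24.6-fold among the CD8-IFNγRKO clones, from 9.53 CPM in the largest clone of 1463 cells to 234.7 CPM in the 8th largest, of 149 cells. Control clones ranged from 15.8 to 282.8 CPM, and 21 of 25 CD8-IFNγRKO clones were below their median of 59.0 CPM. The clone of 149 cells also had the highest *Cxcr4* of the CD8-IFNγRKO clones (25.5 CPM) and 0 UMIs of *Ccr7* and *Ccr8*. In control, 1 clone of 29 cells was highest for *Cxcr3* (282.8 CPM, 28 UMIs), *Cxcr4* (111 CPM, 11 UMIs) and *Ccr2* (232 CPM, 23 UMIs) together. The cells of the clone of 149 cells and of this control clone were shallow, with medians of 3211 and 3502 UMIs. The median was 11535 UMIs in the largest CD8-IFNγRKO clone. *Ccr2* ranged from 18.6 to 151.7 CPM (median 31.1) in CD8-IFNγRKO and from 7.26 to 232.3 CPM (median 36.2) in control clones. Its median was thus lower in CD8-IFNγRKO, whereas its pooled level in these clones was higher, at 35.7 against 26.8 CPM. *Ccr7* ranged from 0 to 130 CPM (median 37.2) in CD8-IFNγRKO and from 0 to 357 CPM (median 38.9) in control clones, with nearly equal medians.

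**Figure D4:**
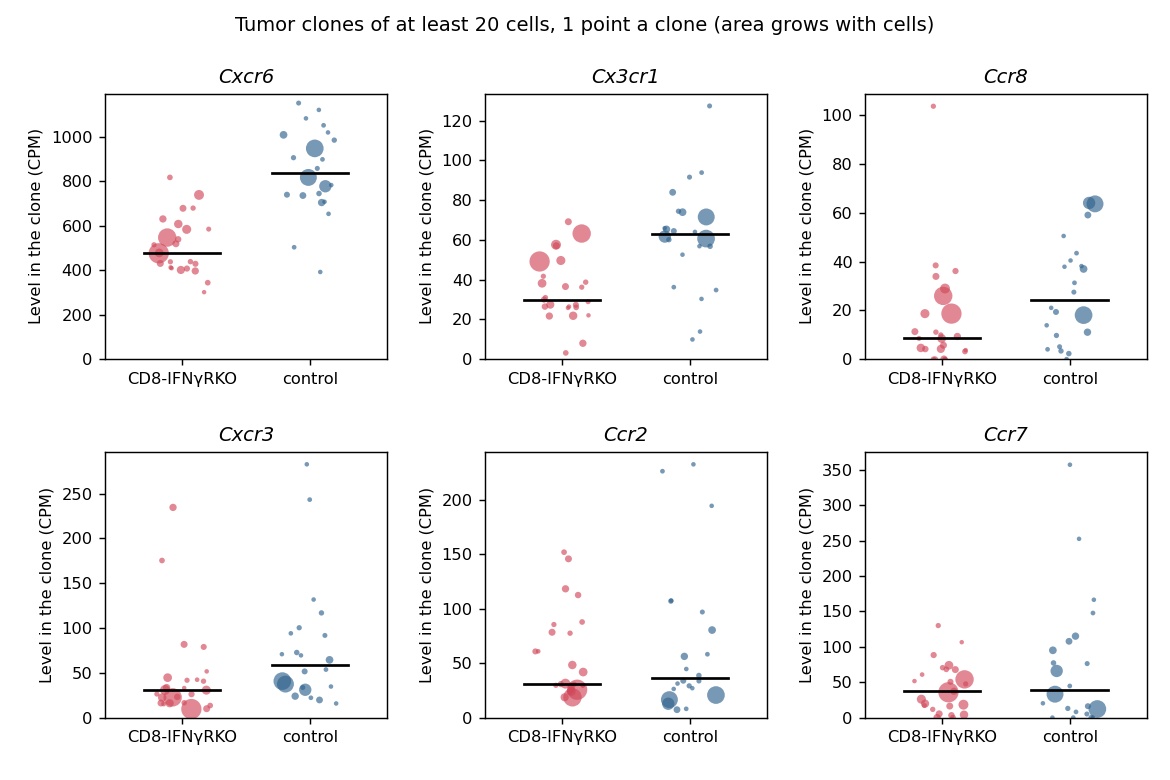
CPM of 6 of the receptor genes in each tumor clone of at least 20 cells, 25 in CD8-IFNγRKO and 22 in control, with 1 point per clone whose area grows with its number of cells and a black bar at the median over clones. For Cxcr6 all 25 CD8-IFNγRKO clones lie below the control median of 838 CPM.

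The receptors were next followed across cell states, splitting the thinned tumor cells by a UMI of a marker gene. Cells with a UMI of *Tcf7*, which encodes the stem-like T cell factor TCF1 (446 in CD8-IFNγRKO, 188 in control), had *Ccr7* at 642 and 652 CPM against 59.6 and 70.3 CPM in cells without. *Cxcr3* was at 160 and 113 CPM in *Tcf7* cells against 44.8 and 63.1 CPM in the rest, while *Cxcr6* was at 214 and 286 against 555 and 870 CPM and *Cx3cr1* at 12.6 and 9.97 against 51.5 and 70.4 CPM. In both states *Cxcr6* was lower in CD8-IFNγRKO than in control. The *Tcf7* cells had medians of 3903.5 and 3711.5 UMIs before thinning, against 10097 and 7028 in the rest.

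Cells with *Havcr2*, which encodes the exhaustion marker TIM-3, had the opposite pattern, with *Cxcr6* at 602 and 979 CPM against 513 and 783 CPM in cells without, and *Ccr7* at 31.5 and 33.4 against 112 and 117 CPM. Cells with the proliferation gene *Mki67* had less of both, *Cxcr6* at 443 and 641 CPM and *Ccr7* at 30.9 and 20.04 CPM. Cells with *Xcl1* had *Ccr7* at 245 and 434 CPM against 79.1 and 77.5 CPM in the rest. Among cells with *Ifit3*, an interferon-stimulated gene, *Cxcr3* was at 128 and 117 CPM against 46.3 and 62.3 CPM, and this held in CD8-IFNγRKO as in control tumors.

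In the LN, cells with a UMI of *Ccl5*, a chemokine gene of effector and memory cells (385 in CD8-IFNγRKO, 447 in control), separated *Cxcr3* from *Ccr9*. *Cxcr3* was present in 18.96% and 22.4% of *Ccl5* cells and in 2.28% and 2.20% of the others, and *Ccr9* in 2.34% and 2.01% against 17.4% and 13.2%. *Ccr7* was lower in *Ccl5* cells, at 419 and 362 CPM against 693 and 630 CPM. Of the rare *Ccr2* molecules of the LN, 17 of 19 thinned UMIs in control and 3 of 7 in CD8-IFNγRKO lay in *Ccl5* cells. *Cxcr6*, in contrast, was flat across this split, at 94.2 and 101 CPM with *Ccl5* and 94.3 and 95.2 CPM without.

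**Figure D5:**
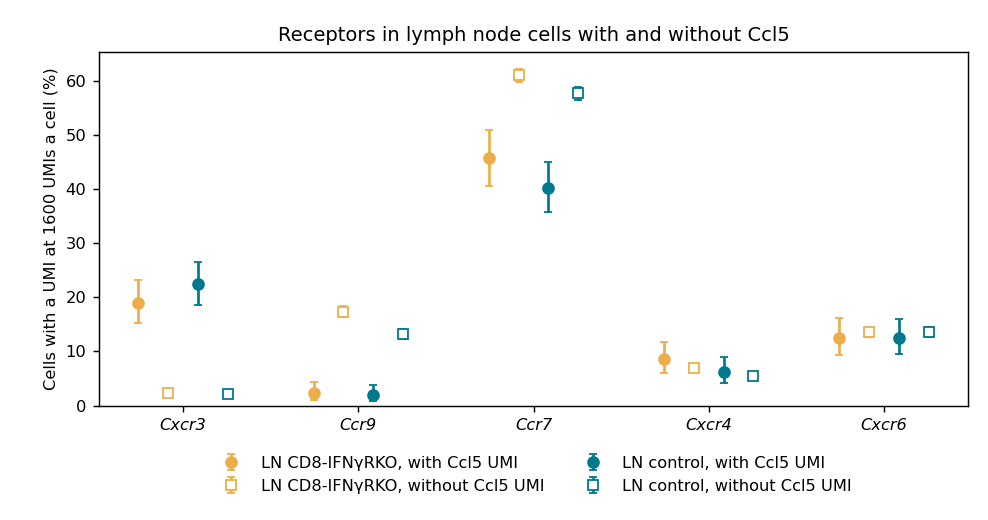
Percent of LN cells with a UMI of each receptor gene, for cells with and without a UMI of Ccl5, after thinning every cell to 1600 UMIs, with exact 95% Clopper-Pearson intervals that cover counting error only. Cxcr3 is more frequent and Ccr9 less frequent in Ccl5 cells of both genotypes, and Cxcr6 is at 12.5% to 13.5% throughout.

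Finally, pairs of receptors were counted within the thinned cells and set beside the product of their separate shares, as a description in sparse counts. *Ccr8* and *Cx3cr1*, the neighbours on chromosome 9, occurred together in 37 CD8-IFNγRKO tumor cells where the product gave 17.2, and in 54 control tumor cells where it gave 33.4. *Cxcr3* and *Cxcr4* occurred together in 23 cells (product 10.1) and 19 cells (7.37), and *Cxcr3* and *Ccr2* in 58 (37.6) and 50 (29.0). *Cxcr6* and *Ccr7* met less often, in 147 cells (product 293.9) and 152 cells (243.9), as did *Ccr2* and *Ccr7*, in 20 (36.4) and 8 (18.0). In the LN, *Cxcr3* and *Ccr9* met in 6 cells (product 35.8) and 5 cells (28.6), while *Cxcr6* and *Ccr7* met in 529 (541.5) and 483 (487.1), close to the product. *Ccr9* and *Cxcr6*, also neighbours on chromosome 9, were close to it too, in 153 LN cells (148.4) and 102 LN cells (107.0). Whether position on the chromosome bears on these counts was not tested.

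The genes most raised in cells with a given receptor were ranked by the lower log2 ratio of the 2 genotypes with 5 CPM added. These ratios come from the same thinned cells as the pairs and marker splits above and are not independent of them. Tumor cells with *Ccr7* had more *Tcf7* (3.16 in CD8-IFNγRKO, 3.63 in control) and *Dapl1* (3.11 and 3.01), followed by *Nsg2* and *Fam241a*. Tumor cells with *Ccr2* were led by the granzyme genes *Gzma* (1.79 and 1.87) and *Gzmk* (0.94 and 1.13), then *Nfatc2*, *Sit1* and *Prkcz*. Cells with *Cxcr3* were led by *S1pr1* (1.37 and 1.38), the receptor for egress along sphingosine-1-phosphate, with *Cxcr4* (1.07 and 1.28) among the next genes beside *Gm26740*, *Ssh2* and *Pmepa1*.

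*Ccr8* and *Cx3cr1* were among the leading genes of each other's cells. Tumor cells with *Ccr8* had more *Slc16a11* (1.29 and 0.80) and *Cx3cr1* (1.06 and 0.77), then *Spp1*, *Ccrl2* and *Nrn1*, and cells with *Cx3cr1* had more *Ccr8* (1.08 and 0.73), then *Cd99l2*, *Penk*, *Gzma* and *Dtx2*. Cells with *Cxcr4* were led by *Gzma*, *Ccr7*, *Cxcr3*, *Tagap* and *Emb*. For *Cxcr6*, carried by most tumor cells, the leading genes *Adgrg1* (0.54 in each genotype), *Tmem218*, *Fgl2*, *Cx3cr1* and *Gm36723* differed little from the remaining cells.

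In the LN, cells with *Cxcr3* were led by *Ccl5* (2.78 and 3.39), *Ccl4* (2.29 and 3.11), *S100a6*, *Ctla2a* and *Ly6c2* (2.02 and 2.03). Cells with *Ccr9* were led by *Zscan2*, *Itgae* (0.55 and 0.76), which encodes the αE integrin that pairs with β7, *Eif4e3*, *Rgcc* and *Kdm6b*. LN cells with *Cxcr6* had more *S100a6* (1.12 and 0.73). Those with *Cxcr4*, *Cxcr6*, *Ccr7* or *Ccr9* had no gene raised by a log2 ratio of 1 or more in both genotypes.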

How the data were processed

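Droplet libraries were made from sorted CD8 T cells with the 10x 5′ chemistry, and per the paper and the labels the authors mapped and counted them with Cell Ranger 6.0.0, which gave the deposited UMI counts per gene and barcode and the TCR contigs used here. No cell annotation was used. The study's filters were applied again (200 to 6000 genes, mitochondrial UMIs up to 3%, no gene above 20% of UMIs, a UMI of *Cd2*, *Cd8a* and *Cd8b1*), and barcodes with 3 or more of the myeloid markers were removed. Doublets were kept, and 1 alternative left out the 8% of cells with most UMIs. UMIs were summed per library or cell class, divided by the summed total and multiplied to CPM, with exact Poisson, conditional binomial and Clopper-Pearson intervals at 95%. These cover counting error only, and the depth of 28841136 to 93889481 UMIs per library sets their width. With 1 library per group, no p-value was computed.

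Genes with at least 100 UMIs over both sides were compared, and a log2 ratio of 0.5 in either direction with 1 CPM added was the limit. Cells were thinned to 1600 UMIs without replacement, leaving out 41 to 701 shallower cells per library. The 8 receptor genes were named in each comparison. From the lists of other receptors, ligands and signaling genes, up to 5 genes in each direction past the limit could be named by size, and up to 5 partner genes per receptor. Some genes and motifs of these lists are not reported here. The receptors and lists were chosen with earlier results of these data known. Clones were defined within each tumor library from the first productive α and β chain by UMIs, with chain sequences as deposited. The scripts ran under Python 3.11.15 with scipy 1.17.1 for intervals, numpy 2.4.6 and pandas 2.3.3 for tables and matplotlib 3.10.9 for figures, and were tested on simulated data. Alternatives covered cell filters, deep cells, size factors, the added CPM, the limit, gene sets in the total, clone definitions and large clones.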

Additional observations from a re-analysis of the deposited data

Results flagged for a closer look

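For 3 receptor genes the log2 ratio of CD8-IFNγRKO over control pointed up in some sets of cells and down in others. This counts only ratios with enough UMIs to be compared and a 95% interval, without added CPM, that did not change sign. Since each set is 1 library per genotype, none of these differences was tested. *Cxcr6* also changed direction, from −0.66 in the tumor to 0.02 in the LN, but its LN interval (−0.06 to 0.09) changed sign. *Ccr8* and *Cx3cr1*, lower in the tumor, pointed up in single-cell clones, at 0.28 and 0.06, with too few UMIs to be compared. *Ccr2* was at 0.41 in the tumor and −0.87 in the LN, where it rested on 103 UMIs. *Ccr7* was at −0.16 in the tumor and 0.13 in the LN. Within the tumor, *Ccr7* was at −0.13 in clones of 20 or more cells, 0.17 in single-cell clones and 0.74 in clones of 5 to 19 cells. The last value rested on 99 and 79 UMIs in CD8-IFNγRKO and control. After thinning, only 7 of 158 and 9 of 289 cells of that class had a *Ccr7* UMI. These shares, 4.43% (1.80 to 8.92) and 3.11% (1.43 to 5.83), overlapped. The intervals of the ratios count molecules, which for *Ccr7* were gathered in a few tumor cells. *Cxcr3* was at −0.72 in clones of 20 or more cells and 0.36 in clones of 5 to 19 cells. With the largest clone of each library left out, the values in clones of 20 or more were −0.43 for *Cxcr3* and −0.42 for *Ccr7*. All log2 ratios have 1 CPM added.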

How the results depend on the processing

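No paired analysis was possible because each tissue and genotype was 1 library of pooled mice and no test was made. The 83 alternative counts were nearly all of receptor genes past the limit. The rest, under other thinning or none, counted receptor genes with a larger share of cells in control than in CD8-IFNγRKO tumor. Of the 83, 78 stayed within 1.5 times the main count. With a limit of 1 in place of 0.5, 1 of 7 genes passed between genotypes in the tumor (*Ccr8*), where 2.33% of all genes did. Between genotypes in the LN, 0 passed with 5 CPM added, with a limit of 1, and with the 8% of cells with most UMIs or barcodes shared between libraries left out, where *Ccr2* had under 100 UMIs and was not compared. Leaving out shared barcodes, and the largest clones when comparing genotypes within clones of 20 or more cells, was chosen after seeing the data. Of 541 alternative log2 ratios, 0 turned a ratio that had passed the limit. *Cx3cr1* in the tumor ranged from −0.56 to −0.41 and was within the limit under 3 of 12 alternatives, and *Cxcr4* ranged from 0.33 to 0.59 and was past it under 4 of 12. The cause was not tested. Few molecules were counted for *Ccr2*, *Ccr8* and *Cx3cr1* in the LN and for *Ccr9* in the tumor, which limits their ratios.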

Other observations

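*Ifngr2*, which encodes the second chain of the IFNγ receptor and was not deleted, was at 36.2 CPM in CD8-IFNγRKO LN and 30.1 CPM in control LN cells, and at 0.511 and 0.574 CPM in the respective tumors (48 and 34 UMIs). It was thus far lower in tumor than in LN cells of both genotypes, the same order as *Ccr9* and *Ccr7*. This was seen after its values had been listed beside those of *Ifngr1*.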
